A study of Mus musculus with 6 samples.

Results

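The 10 genes described here encode brakes of mitogen-activated protein (MAP) kinase signalling: 6 MAP kinase phosphatases (Dusp1, Dusp4, Dusp5, Dusp6, Dusp7 and Dusp10), 3 Sprouty proteins (Spry1, Spry2 and Spry4) and the Sprouty relative Spred1. They were taken by symbol from a table of 52513 genes, and each symbol matched 1 row. The set was proposed with earlier results of these libraries known. RNA was taken from wild-type mice, from the L4 to L5 level of the lumbar spinal cord. One group received saline and the other morphine (10 µg in 10 µL), in each case as intrathecal injections for 7 days, and there were 3 libraries per group. Genotype and tissue were shared by both groups, and the labels name no strain, sex or age. In each group the library descriptions list the numbers 1 to 3 for replicate 1, 4 to 6 for replicate 2 and 7 to 8 for replicate 3, and do not say whether these are animals pooled in a library. Since nothing says that the libraries came from separate animals, p-values measure the spread between these libraries.

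Growth factor receptors and many G protein-coupled receptors, the opioid receptors among them, switch on the kinase ERK through Ras, Raf and MEK. Active ERK raises transcription of genes for its own inhibitors, so that the mRNAs of several dual-specificity phosphatases and Sprouty proteins are widely used as a readout of recent ERK activity. The phosphatases remove phosphate from the activation loop of ERK, JNK or p38, whereas Sprouty and Spred proteins act upstream on the path from receptor to Raf. In the dorsal horn, ERK is a known part of pain sensitization and of the response to repeated morphine. The table holds mRNA levels, and no kinase activity was measured.

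Promoter sequence stood in RefSeq's table for 8 of the 10 genes (GRCm38.p6). Dusp4 and Spry4 had no entry and were not searched. Of the 8 promoters, 2 are shown because they carry the DNA letters by which such genes are known to be induced. Capitals in the Dusp1 sequence mark the cyclic AMP response element TGACGTCA and the half-site TGACG, and capitals in the Dusp5 sequence mark 2 CArG boxes, the binding sequence of serum response factor, and 1 half-site on the opposite strand. Both sequences run 5′ to 3′ on the gene's strand and end before the nearest start annotated in GENCODE M21, at chr17:26508520-26508722 on the minus strand and chr19:53528895-53529108 on the plus strand.
Dusp1: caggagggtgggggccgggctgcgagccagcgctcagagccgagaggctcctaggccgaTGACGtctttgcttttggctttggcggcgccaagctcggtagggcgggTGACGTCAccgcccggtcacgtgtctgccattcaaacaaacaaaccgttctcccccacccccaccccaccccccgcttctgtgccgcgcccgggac
Dusp5: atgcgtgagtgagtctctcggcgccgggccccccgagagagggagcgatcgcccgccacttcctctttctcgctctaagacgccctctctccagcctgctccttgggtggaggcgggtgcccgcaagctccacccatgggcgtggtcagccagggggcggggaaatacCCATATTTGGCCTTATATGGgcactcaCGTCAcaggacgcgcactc

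In the 250 bases before each RefSeq start, searched on both strands, TGACGTCA was found in 1 of the 8 promoters (Dusp1) and in 1.55% of the 32851 promoters of the table. The half-site TGACG, which the full element contains on each strand, was found in Dusp1 and Dusp5 and in 17.8% of promoters. A CArG box was found in Dusp5 and in 1.47% of promoters. The AP-1 letters TGANTCA (6.75% of promoters) and the ETS letters CCGGAA (12.0%) were in none of the 8 windows. A match is a description of the letters in the window and shows no binding.

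The values are FPKM, fragments per unit of transcript length and of library size, so levels may be compared between genes. Depth, which the spacing of low values gives as an estimate, was 21.2 to 26.1 M fragments in saline and 17.8 to 19.9 M in morphine. The column totals were 662470 to 670280 FPKM in saline and 720234 to 741145 in morphine, so a rescaling of the libraries to equal sums moves small differences. All 10 genes reached 1 FPKM in at least 3 libraries and were tested among 14614 genes with limma on log2(FPKM + 1). Dusp4 passed that filter through saline, since 2 of its 3 morphine values were under 1 FPKM. Neuronal (Rbfox3, Snap25) and glial (Gfap, Mbp) markers were high in every library of the labelled tissue, and the dorsal root ganglion genes Scn10a and Mrgprd were near 0.

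After 7 days of morphine, Dusp4, Spry4, Dusp6 and Dusp1 had lower levels than after saline, by 57%, 32.2%, 22% and 22.4% of the saline mean, and none of these differences passed the test at an adjusted p of 0.05. In bulk tissue, fewer cells of a type and less RNA per cell cannot be told apart. Spry4 and Dusp4 came nearest, with limma adjusted p = 0.0525 and 0.0526. Dusp5, Dusp7, Dusp10, Spry1, Spry2 and Spred1 differed by 12.9% or less. By limma, 0 of the 10 genes were called lower and 0 higher, where 0.561% of tested genes were called lower and 0.944% higher. At an unadjusted p under 0.05, 4 of the 10 were lower and 0 higher, beside 11.1% and 11.2% of tested genes. In 4 of the 10 (Dusp1, Dusp4, Dusp6 and Spry4) the 3 morphine values all lay below the 3 saline values, beside 15.7% of tested genes, and in 1 (Spry2) they all lay above, beside 13.0%. The median log2 fold change of the 10 genes was -0.06 and that of all tested genes -0.02.

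**Figure D1:**
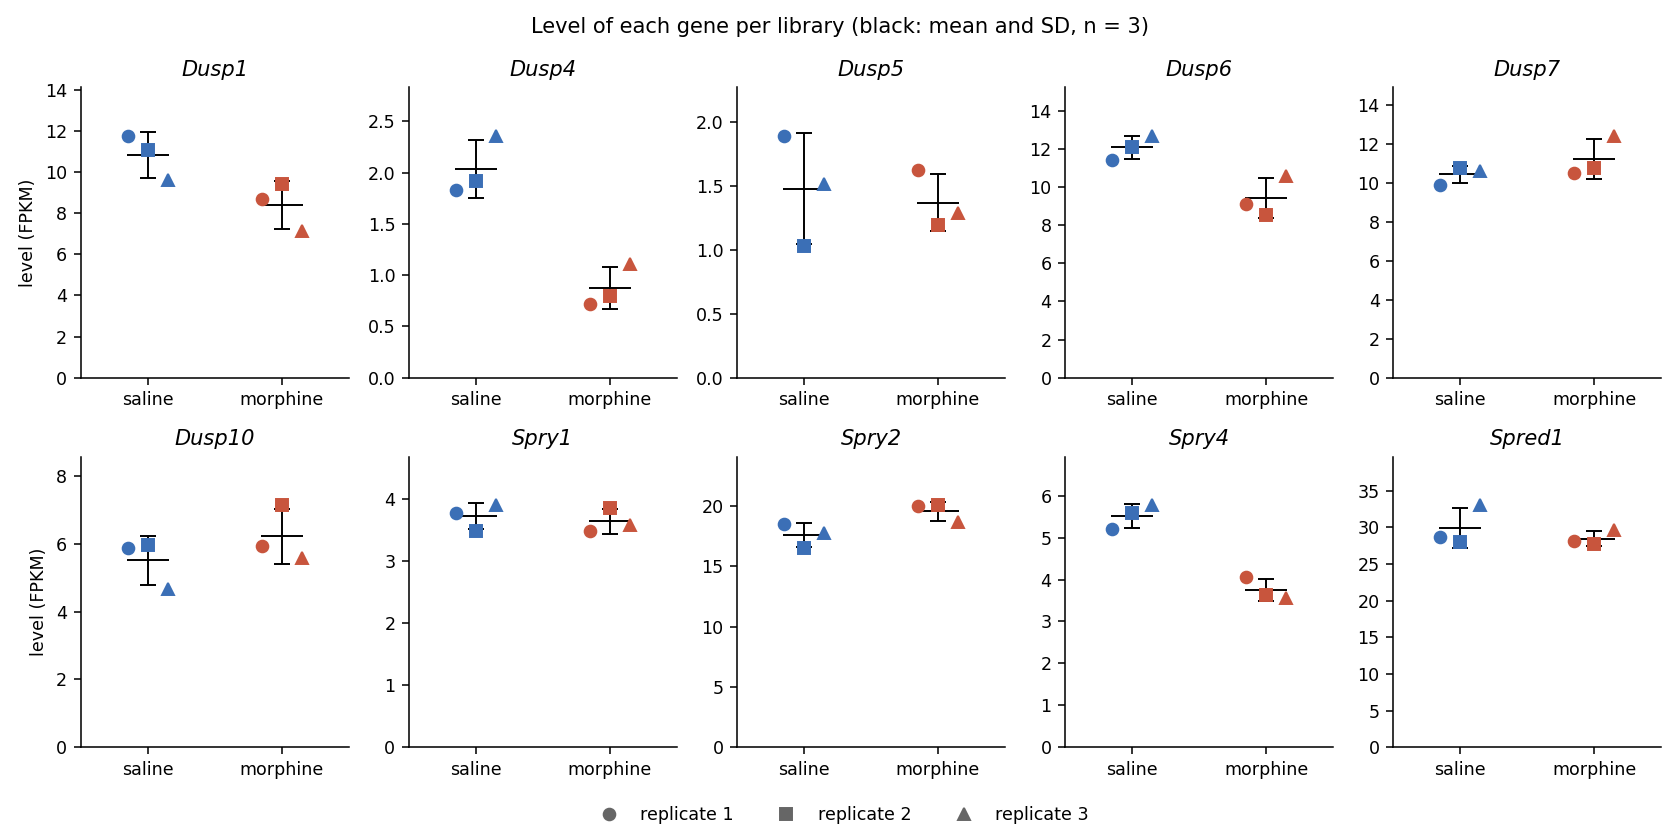
Level of each of the 10 genes in FPKM (vertical axes, from 0) in the 3 saline (blue) and 3 morphine (red) libraries, with symbols for the replicate number and black bars for mean and SD. The red points lie below the blue points for Dusp1, Dusp4, Dusp6 and Spry4, above them for Spry2, and overlap them for the other 5 genes.

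Dusp4, Dusp1 and Dusp5 are inducible phosphatases of the nucleus, where Dusp5 acts on ERK and Dusp1 and Dusp4 act also on JNK and p38. Dusp4 (ENSMUSG00000031530, chromosome 8, 34807297 to 34819894, plus strand of mm10, 1 annotated transcript of 2740 nt) was at 1.83, 1.92 and 2.36 FPKM in libraries 1, 2 and 3 of the saline group and at 0.72, 0.80 and 1.11 FPKM in those of the morphine group. Its highest morphine value was below its lowest saline value. The means were 2.04 ± 0.284 and 0.877 ± 0.206 FPKM (SD, n = 3 each), a level 2.32-fold lower, and the log2 fold change was -0.70 (SE 0.13, 95% interval -1.0 to -0.39, limma adjusted p = 0.0526). With a pseudocount of 0.1 FPKM in place of 1, which shrinks low genes less, the log2 fold change was -1.14. The level is low: it stood for about 99, 126 and 126 fragments in saline and 36, 36 and 52 in morphine, with a 95% Poisson interval of 25.2 to 49.8 fragments in morphine 1 that covers counting error alone.

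Dusp1 (ENSMUSG00000024190, chromosome 17, 26505590 to 26562128, minus strand), an early response gene of stress and growth factors, was at 11.77, 11.09 and 9.60 FPKM in libraries 1, 2 and 3 of the saline group and at 8.67, 9.41 and 7.11 FPKM in those of the morphine group. The groups were separated by a narrow gap, from 9.41 in morphine 2 to 9.60 in saline 3. The means were 10.8 ± 1.11 and 8.4 ± 1.17 FPKM (SD, n = 3 each), with a log2 fold change of -0.33 (SE 0.12, 95% interval -0.61 to -0.06, limma adjusted p = 0.159). After quantile normalization the Dusp1 values of the groups overlapped. The span given for Dusp1 covers 6 annotated transcripts, and the promoter shown above lies inside that span. Annotated Dusp1 exons overlap those of Ergic1, a gene of vesicle traffic on the opposite strand at 31.5 ± 1.29 FPKM after saline and 29.7 ± 1.07 after morphine (SD, n = 3 each), and no source used here states whether counting used strand, so reads of the pair may not be told apart and the Dusp1 value is uncertain to that extent.

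Dusp5, whose promoter carries the 2 CArG boxes shown above, was the least expressed of the 10 genes in saline. It was at 1.89, 1.03 and 1.51 FPKM in the saline libraries and at 1.62, 1.19 and 1.29 FPKM in the morphine libraries, about 48 to 91 fragments per library. The morphine values all lay within the saline range. The log2 fold change was -0.05 with a 95% interval of -0.42 to 0.31 (limma adjusted p = 0.865), an interval wide enough to include the difference seen for Dusp1 or Dusp6. Dusp5 exons overlap an annotated gene on the opposite strand, AC137853.2, which was not found by that name among the genes with values, so its level is not known here.

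Dusp6 and Dusp7 are phosphatases of the cytoplasm with a preference for ERK, and Dusp6 is the one most often taken as an ERK target gene. Dusp6 (ENSMUSG00000019960, chromosome 10, 99263231 to 99267489, plus strand) was at 11.44, 12.08 and 12.69 FPKM in the saline libraries and at 9.13, 8.54 and 10.59 FPKM in the morphine libraries. The highest value of morphine lay below the lowest of saline. The means were 12.1 ± 0.625 and 9.42 ± 1.06 FPKM (SD, n = 3 each), with a log2 fold change of -0.33 (SE 0.09, 95% interval -0.55 to -0.11, limma adjusted p = 0.0968). Dusp7, its close relative, was at 9.92, 10.78 and 10.61 FPKM in the saline libraries and at 10.52, 10.76 and 12.43 in the morphine libraries. Its groups overlapped, with morphine 3 the highest library, and its log2 fold change was 0.09 (95% interval -0.10 to 0.29, limma adjusted p = 0.542). Without morphine 3 the log2 fold change of Dusp7 was 0.03, and without saline 1 it was 0.06.

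Dusp10 prefers JNK and p38 to ERK. It was at 5.89, 5.97 and 4.68 FPKM in the saline libraries and at 5.94, 7.14 and 5.59 FPKM in the morphine libraries. Saline 3 was the lowest library and morphine 2 the highest, and the groups overlapped (log2 fold change 0.15, 95% interval -0.13 to 0.43, limma adjusted p = 0.505). The log2 fold change of Dusp10 was 0.05 without saline 3 and 0.06 without morphine 2.

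Among the Sprouty genes, whose proteins curb signalling from receptor tyrosine kinases, Spry4 (ENSMUSG00000024427, chromosome 18, minus strand, 1 annotated transcript of 4755 nt) was at 5.21, 5.59 and 5.77 FPKM in the saline libraries and at 4.05, 3.62 and 3.57 FPKM in the morphine libraries. The gap between the groups, from 4.05 to 5.21 FPKM, was wider than the range within either group. The means were 5.52 ± 0.286 and 3.75 ± 0.264 FPKM (SD, n = 3 each), with a log2 fold change of -0.46 (SE 0.08, 95% interval -0.66 to -0.26, limma adjusted p = 0.0525). The values stood for about 507 to 661 fragments in saline and 293 to 365 in morphine.

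Spry2, the most expressed Sprouty gene, was at 18.49, 16.51 and 17.80 FPKM in the saline libraries and at 19.97, 20.06 and 18.64 FPKM in the morphine libraries. The groups did not overlap, but saline 1 and morphine 3 lay 0.15 FPKM apart, and after rescaling to TPM or quantile normalization the groups overlapped. The log2 fold change was 0.14 (SE 0.07, 95% interval -0.02 to 0.31, limma adjusted p = 0.271). Spry1 was at 3.77, 3.49 and 3.90 FPKM in the saline libraries and at 3.48, 3.86 and 3.58 in the morphine libraries, with groups that overlapped (log2 fold change -0.02, 95% interval -0.23 to 0.18, limma adjusted p = 0.89). An exon of Spry1 overlaps one of Gm42922 on the opposite strand, which was at 0.353 and 0.44 FPKM on average.

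Spred1, which blocks activation of Raf and brings the Ras inhibitor neurofibromin (Nf1) to the membrane, was the most expressed of the 10 genes. It was at 28.60, 28.05 and 32.99 FPKM in the saline libraries and at 28.08, 27.66 and 29.60 FPKM in the morphine libraries. Replicate 3 was the highest library in each group, and the groups overlapped (log2 fold change -0.07, 95% interval -0.25 to 0.12, limma adjusted p = 0.654).

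In saline the levels per length ran from Spred1 at 29.9 FPKM through Spry2 (17.6), Dusp6 (12.1), Dusp1 (10.8), Dusp7 (10.4), Spry4 (5.52), Dusp10 (5.51), Spry1 (3.72) and Dusp4 (2.04) to Dusp5 at 1.48 FPKM. Neighbours whose ranges over the 3 saline libraries overlapped were Dusp6 and Dusp1, Dusp1 and Dusp7, Spry4 and Dusp10, and Dusp4 and Dusp5. In morphine the order was Spred1 at 28.4 FPKM, Spry2 (19.6), Dusp7 (11.2), Dusp6 (9.42), Dusp1 (8.4), Dusp10 (6.22), Spry4 (3.75), Spry1 (3.64), Dusp5 (1.37) and Dusp4 (0.877). Here the ranges of Dusp7 and Dusp6, Dusp6 and Dusp1, Dusp1 and Dusp10, and Spry4 and Spry1 overlapped. Dusp6 was above Dusp7 in each saline library and below it in each morphine library.

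Ratios between genes within a library do not depend on the scaling between libraries, and 3 pairs of relatives were compared in this way, chosen after the values were seen, so that the ratios are a description with no test. The ratio of Dusp6 to Dusp7 was 1.15, 1.12 and 1.2 in the saline libraries and 0.868, 0.794 and 0.852 in the morphine libraries. The ratio of Spry4 to Spry2 was 0.282, 0.339 and 0.324 in the saline libraries and 0.203, 0.18 and 0.192 in the morphine libraries. The ratio of Dusp4 to Dusp5 was 0.968, 1.86 and 1.56 in the saline libraries and 0.444, 0.672 and 0.86 in the morphine libraries, with a gap from 0.86 to 0.968. In each pair the groups did not overlap, and the log2 differences of the ratios, morphine minus saline, were -0.47, -0.71 and -1.15. Dusp6, Spry4 and Dusp4 were themselves lower without overlap and Spry2 was higher without overlap, so the separation of the ratios is no separate evidence. A ratio does not show that the second member of a pair was constant.

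**Figure D2:**
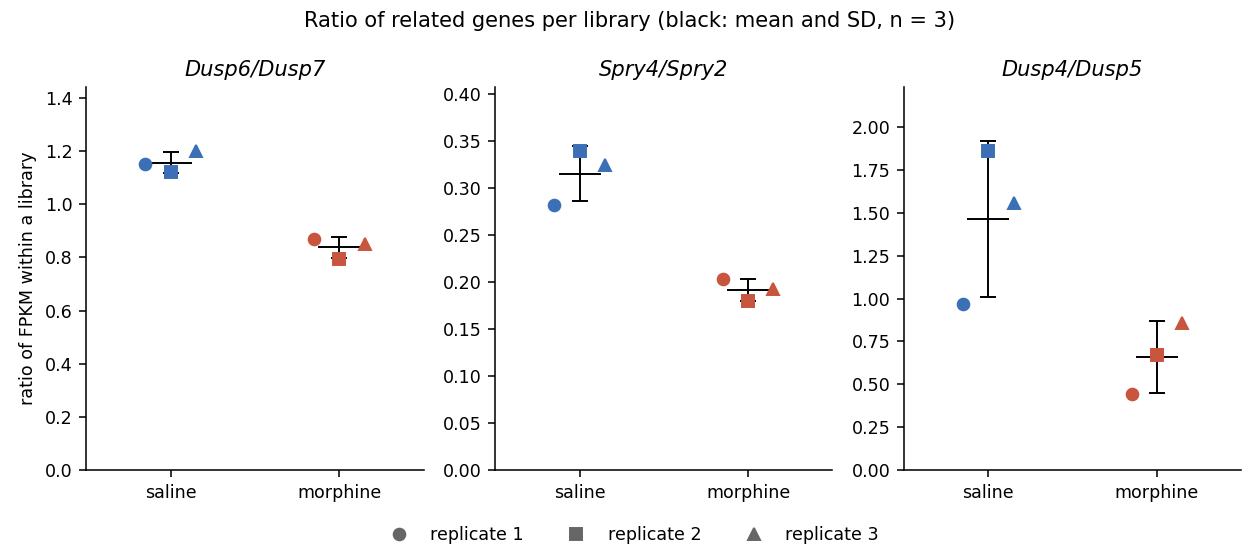
Ratio of the FPKM of 2 related genes within each library (vertical axes, from 0), for saline (blue) and morphine (red), with symbols for the replicate number and black bars for mean and SD. The red points lie below the blue points in each panel, from 0.794 to 0.868 against 1.12 to 1.2 for Dusp6 over Dusp7.

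Whether genes were called depended on the treatment of the values. Rescaling the libraries to equal sums (TPM) moved the median log2 fold change of all tested genes from -0.02 to -0.13. The calls across all genes then went from 138 higher and 82 lower to 101 higher and 853 lower (5.84% of tested genes lower). On that scale Dusp4 (-0.88), Spry4 (-0.60) and Dusp6 (-0.46) were called lower with adjusted p = 0.038, 0.0366 and 0.0424. With robust moderation in limma, where 0.849% of genes were called lower, Dusp4 and Spry4 were called with adjusted p = 0.0459 each. In both treatments Dusp4 entered the test through its saline values. With no filter on low values the limma adjusted p was 0.11 for Dusp4, 0.114 for Spry4 and 0.18 for Dusp6. Without any 1 library, 0 of the 10 genes were called, and the adjusted p of Spry4 ran from 0.0526 to 0.165 and that of Dusp4 from 0.0545 to 0.168. The sign of the log2 fold change of Dusp1, Dusp4, Dusp6 and Spry4 was negative under each of these alternatives.

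**Figure D3:**
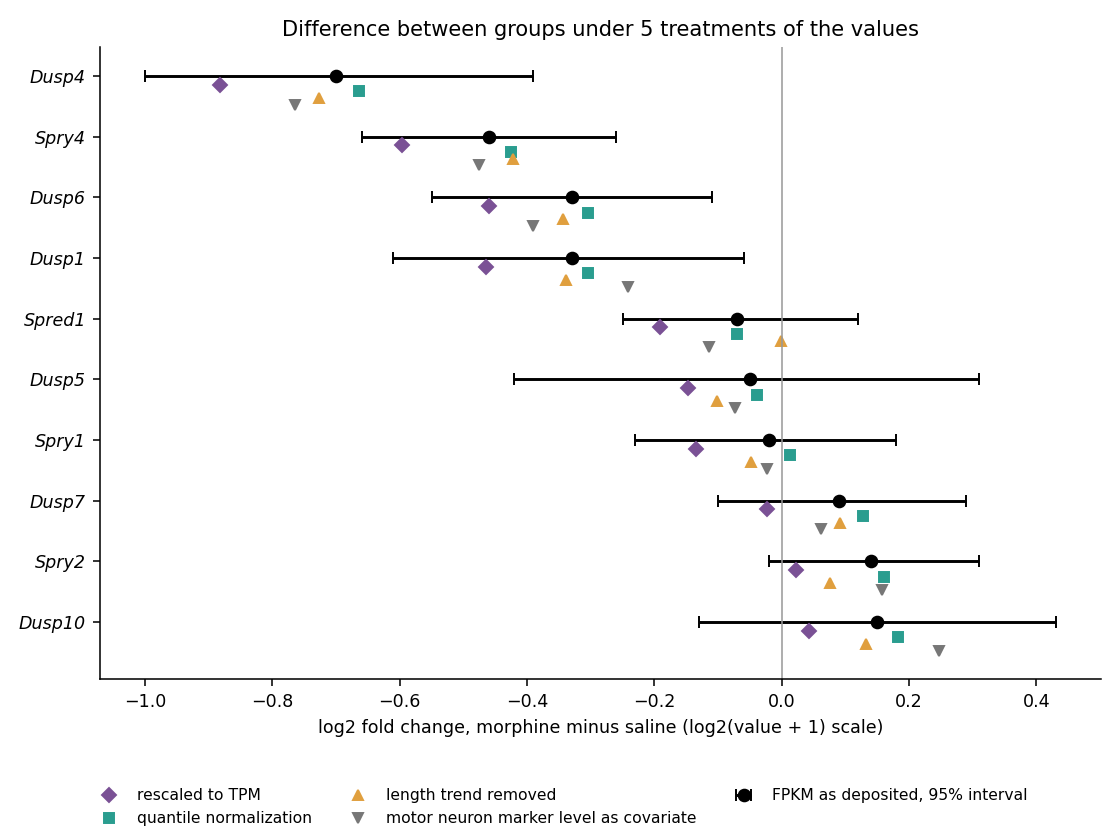
Log2 fold change of the 10 genes, morphine minus saline (horizontal axis, log2(value + 1) scale), from the FPKM as deposited (black, with 95% interval) and from 4 other treatments of the values (coloured symbols). The symbols for Dusp4, Spry4, Dusp6 and Dusp1 lie left of 0 under each treatment shown, while those for Dusp7 and Spry1 fall on both sides of 0.

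Libraries differed within groups in motor neuron RNA, among other cell types. Several of the 10 genes were lowest or highest in the library with the least motor neuron RNA, a pattern picked out after the values were seen. The mean log2 level of 8 motor and cholinergic neuron markers was 3.80, 3.68 and 2.13 in libraries 1, 2 and 3 of the saline group and 2.47, 3.67 and 1.74 in those of the morphine group. In each group the library with the lowest marker level was replicate 3, whose description lists 2 numbers where the others list 3, and it had the lowest Dusp1 and Dusp10, while Dusp4, Dusp6 and Spred1 were highest there. How many of all tested genes were lowest or highest in replicate 3 of each group was not counted. The number of such genes among the 10 is therefore a description and no result about them. With the marker level as a covariate in limma, the log2 fold change of Dusp1 was -0.24 (adjusted p = 0.0876) and that of Dusp10 was 0.25 (adjusted p = 0.0808). In the same fit, which called 2.65% of tested genes lower, Dusp4 (-0.77), Spry4 (-0.47) and Dusp6 (-0.39) were called lower with adjusted p = 0.0372, 0.0396 and 0.0392.

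**Figure D4:**
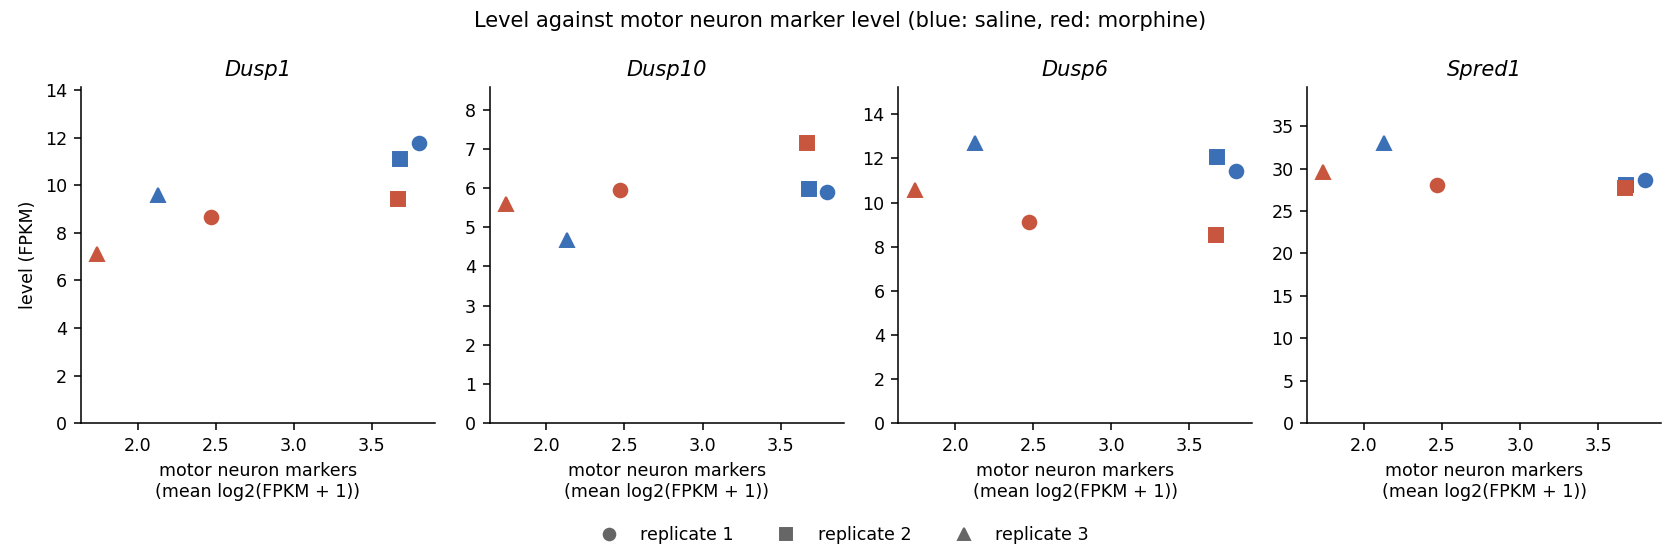
Level of Dusp1, Dusp10, Dusp6 and Spred1 in FPKM (vertical axes, from 0) against the mean log2(FPKM + 1) of 8 motor neuron markers (horizontal axes), 1 point per library, saline in blue and morphine in red. Replicate 3 (triangles), with the lowest marker level of each group, has the lowest Dusp1 and Dusp10 and the highest Dusp6 and Spred1 of its group.

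Summed levels of red cell and pericyte markers were, like the 4 genes above, lower in each morphine library than in any saline library. The summed level of 3 globin genes was 751 to 1054 FPKM in saline and 417 to 591 in morphine, and that of 4 pericyte and smooth muscle markers was 41.3 to 46.4 FPKM in saline and 28.9 to 36.2 in morphine. Rgs5 made up most of the pericyte and smooth muscle sum (34.7 and 29.1 FPKM on average). Rgs5 and Kcnj8 were lower without overlap, while Acta2 and Myh11 had lower means with groups that overlapped. The sum of 5 endothelial markers was 41.6 to 44.6 FPKM in saline and 34.3 to 44.9 in morphine, ranges that overlapped. Cldn5 made up most of that sum (22.5 and 24.3 FPKM on average), while 3 of the 5 markers (Pecam1, Flt1 and Tek) were lower in each morphine library than in any saline library, beside 15.7% of tested genes, and the median log2 fold change of the list was -0.36. Pecam1, an adhesion molecule of endothelium, was at 5.2 and 3.25 FPKM on average (limma adjusted p = 0.0589). Of these 3 lists, 1 gene passed limma's test, the globin Hbb-bt (log2 fold change -1.20, adjusted p = 0.0453), whose reads may be split with its near-identical neighbour Hbb-bs. Without 1 library its adjusted p ran from 0.0365 to 0.152, and the call held without morphine 2 and was lost without each of the other 5. It was lost also with no filter on low values (adjusted p = 0.0992) and without an intensity trend (0.0611). The sum of 5 astrocyte markers was 775 to 1012 FPKM in saline and 789 to 1090 in morphine, with Gfap the largest part (520 and 537 FPKM on average). Of these 5, Aqp4 (129 and 103 FPKM, adjusted p = 0.134), Slc1a2 (131 and 118 FPKM, adjusted p = 0.136) and Gja1 (126 and 119 FPKM, adjusted p = 0.428) were lower without overlap. Gfap and Aldh1l1 were higher on average with groups that overlapped, Aldh1l1 at 17.9 and 19.5 FPKM (limma adjusted p = 0.487). The sum of 5 microglial markers was 111 to 121 and 98.4 to 119, and that of 5 neuronal markers was 2554 to 2658 and 2532 to 2582. The sum of 4 ependymal markers was 15.8 to 20.5 FPKM in saline and 17.3 to 24.1 in morphine. Of these, Ccdc153 was called higher (0.24 and 1.48 FPKM on average, limma adjusted p = 0.0488), and it entered the test through its morphine values. Tmem212, under the filter, was higher without overlap, while the groups of Foxj1 and Rarres2 overlapped. None of these markers was at 0 in all libraries. Their part in the lower levels of Dusp1, Dusp4, Dusp6 and Spry4 was not tested.

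The remaining genes of the family and pathway were read from 9 lists. Of the other MAP kinase phosphatase, Sprouty and Spred genes, 5 of 7 were tested and 0 were called in either direction. Spred2, an inhibitor of Raf activation like Spred1, was at 10.14, 10.21 and 11.68 FPKM in the saline libraries and at 7.53, 9.14 and 8.42 FPKM in the morphine libraries, groups that did not overlap (log2 fold change -0.32, limma adjusted p = 0.11). Spred3 was at 9.01 ± 0.927 and 8.25 ± 0.415 FPKM (mean ± SD, n = 3 each; adjusted p by limma = 0.505). Of 11 atypical dual-specificity phosphatases, small enzymes that lack the domain for docking MAP kinases, 11 were tested and 0 were called. Their median log2 fold change was 0.09, and the smallest p values were those of Dusp28 (22.4 and 27.6 FPKM, adjusted p = 0.156) and Dusp12 (10.2 and 11.4 FPKM, adjusted p = 0.27).

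At the head of the pathway, 13 of 17 growth factor ligands and 14 of 17 receptor tyrosine kinases were tested, and 0 were called. The median log2 fold changes were -0.17 and -0.10. Vegfa, the endothelial growth factor, stood at 37.1 ± 2.73 FPKM on average after saline and 29 ± 2.87 after morphine (SD, n = 3 each; limma adjusted p = 0.0834), and Fgf18 was at 6.33 and 4.87 FPKM (adjusted p = 0.133). Flt1, a Vegfa receptor of endothelium, was at 9.92 and 7.56 FPKM (adjusted p = 0.145), and Ntrk3, the neurotrophin-3 receptor, was at 16.4 and 18.6 FPKM (adjusted p = 0.196).

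Of 21 genes of the ERK cascade, 21 were tested and 0 were called, with a median of -0.09. Shc3, a neuronal adaptor between receptors and Ras, was at 4.16, 3.44 and 4.57 FPKM in the saline libraries and at 2.09, 2.70 and 2.44 in the morphine libraries (log2 fold change -0.57, limma adjusted p = 0.0618). Map2k2, the ERK kinase MEK2, was at 60.1 ± 1.02 and 69.7 ± 3.84 FPKM (mean ± SD, n = 3 each; adjusted p by limma = 0.0998). In the JNK, p38 and ERK5 cascades 16 of 17 genes were tested and 0 were called. Mapk12 (p38 gamma) was at 6.76 and 8.35 FPKM and Mapk14 (p38 alpha) at 21.7 and 17.9 FPKM (limma adjusted p = 0.0771 and 0.0915). Of 16 other brakes of the pathway 14 were tested and 0 were called. Nf1, the Ras inhibitor that Spred1 recruits, was at 13.5 and 11.2 FPKM, and Pebp1, a Raf-binding inhibitor, was at 326 and 372 FPKM (limma adjusted p = 0.0843 and 0.0981).

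Downstream, 18 of 20 genes whose transcription ERK is known to raise were tested. Of these 17 were lower in mean log2 level after morphine and 1 higher, where 53.1% of all tested genes were lower. The 17 include Etv5, Fosl1 and Myc at -0.02 or nearer to 0. By limma's test 1 gene of the list fell, and the median log2 fold change was -0.17. The gene that fell was Fos, the early response transcription factor, from 23.77, 21.18 and 22.95 FPKM in saline to 10.23, 12.49 and 8.97 FPKM in morphine (log2 fold change -1.04, limma adjusted p = 0.0361). Without 1 library the log2 fold change of Fos ran from -1.16 to -0.94, and its call held without morphine 2 (adjusted p = 0.011) and was lost without saline 1 (0.146), saline 2 (0.123), saline 3 (0.0925), morphine 1 (0.152) or morphine 3 (0.103). Egr1, an early response gene under serum response factor and ERK, was at 17.99, 18.12 and 22.32 FPKM in the saline libraries and at 13.59, 11.68 and 13.10 FPKM in the morphine libraries (log2 fold change -0.57, limma adjusted p = 0.0509). The list was chosen with earlier results on early response genes in these libraries known, so its direction is no independent evidence. Of 13 kinases and transcription factors that ERK acts on, 13 were tested and 0 were called, with a median of -0.13. Rps6ka3, the ERK-activated kinase RSK2, was at 5.74 ± 0.298 and 4.35 ± 0.0794 FPKM (mean ± SD, n = 3 each; adjusted p by limma = 0.0692), and Mknk1, a kinase of the translation factor eIF4E, was at 15.9 and 13.7 FPKM (adjusted p = 0.139). At an unadjusted limma p under 0.05, genes higher and lower after morphine numbered 0 and 1 among the other family members, 1 and 0 among atypical phosphatases, 1 and 3 among ligands and 1 and 1 among receptors. They numbered 1 and 3 in the ERK cascade, 2 and 6 in the JNK, p38 and ERK5 cascades, 1 and 1 among the other brakes, 0 and 5 among the ERK-induced genes and 0 and 6 among the ERK-regulated factors and kinases. Over all tested genes these shares were 11.2% higher and 11.1% lower.

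**Figure D5:**
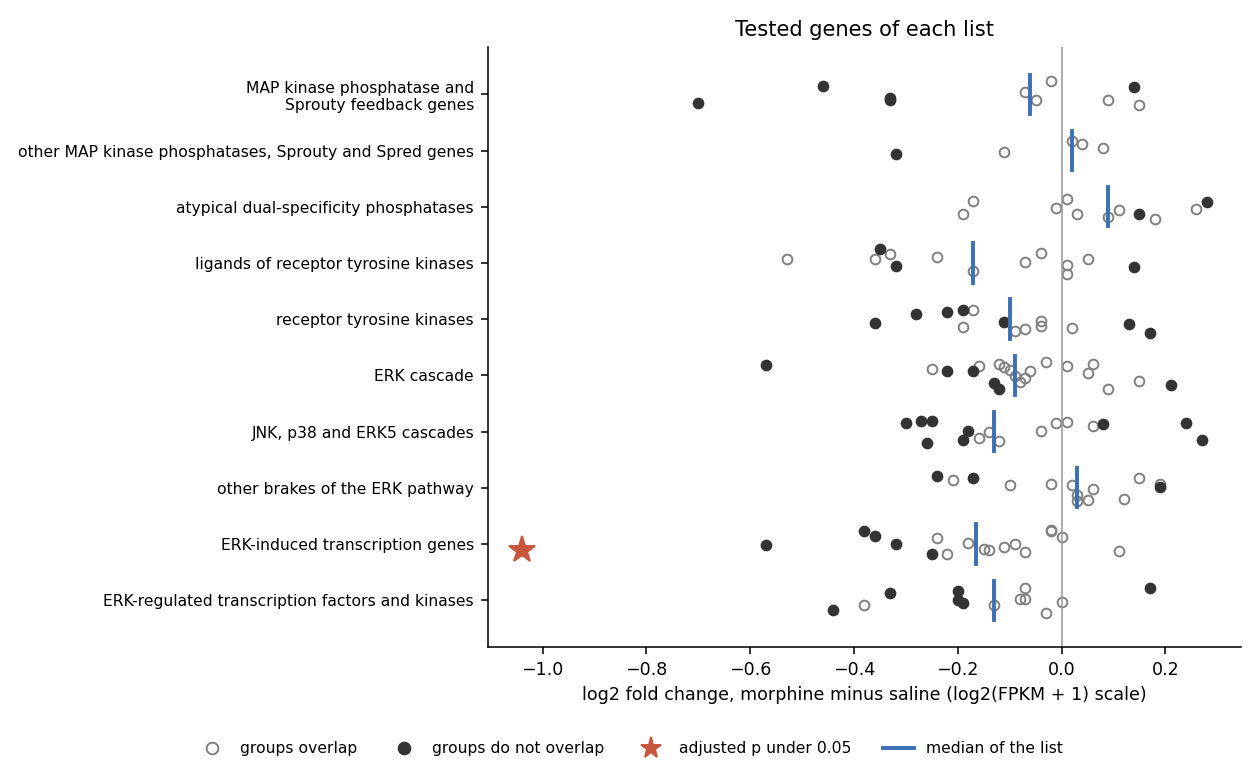
Log2 fold change, morphine minus saline (horizontal axis, log2(FPKM + 1) scale), of each tested gene of the 10 genes described here and of the 9 pathway lists (rows), with filled points where the groups do not overlap, a star where the adjusted p is under 0.05 and a blue line at the median of the list. The single star is Fos at -1.04, and the medians of the lists lie between -0.17 and 0.09.

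The genes whose level over the 6 libraries was most like that of Dusp1, Dusp6 and Spry4 were taken from 9315 or 9316 named protein-coding genes with a mean of at least 5 FPKM, by Pearson's r of log2(FPKM + 1). They were Cnih4 (r = 0.998, Spearman's rho 1), Gab2 (0.995, 0.943) and Mospd2 (0.995, 1) for Dusp1. For Dusp6 they were Irgq (0.996, 1), Slc39a6 (0.995, 1) and Mmp17 (0.993, 1), and for Spry4 they were Samd4 (0.990, 0.943), Kif21a (0.988, 1) and Zfp62 (0.984, 0.943). None of these 9 genes was called by limma. Among the 10 genes themselves, Dusp4 and Dusp6 had r = 0.96, Dusp4 and Spry4 r = 0.91 and Dusp6 and Spry4 r = 0.85. The fourth gene with lower levels, Dusp1, had r = 0.74 with Spry4, 0.56 with Dusp4 and 0.39 with Dusp6. The most negative pairs were Dusp10 and Spred1 (-0.90), Dusp6 and Spry2 (-0.88) and Dusp1 and Dusp7 (-0.84). With 6 libraries in 2 groups and so many candidates such values describe likeness alone, since the points share group, library and depth.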

How the data were processed

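FPKM, to 2 decimals, is the unit in which the authors deposited their table. The submitters' processing notes name RSEM, STAR, Trimmomatic, bcl2fastq 2.19.0 and the build mm10, and no source used here states the annotation release or the strand setting. Columns were matched to the 3 saline and 3 morphine libraries by their descriptions. Gene positions came from GENCODE M21 (GRCm38), and promoters from RefSeq (GRCm38.p6).

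A gene entered the test when 3 or more libraries held 1 FPKM or more (14614 genes). The test was run on log2(FPKM + 1) in R 4.3.3 by limma 3.58.1, allowing the variance to follow intensity, two-sided, with Benjamini-Hochberg adjustment over these genes and a threshold of 0.05. Fold changes on this scale understate the change of low genes. Depth was estimated by finding the fragment total and mean fragment length (216 to 221 nt) at which low values of genes with 1 transcript of 300 to 1500 nt lay nearest to whole fragments. Of these values 77.6% to 80.4% were within 0.05 of a whole number, or within the rounding of the table, against 12.7% to 16.9% for an even spread. Fragments per gene assume the longest transcript. Other steps used pandas 2.3.3 and SciPy 1.17.1 under Python 3.11.15.

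The members and lists were chosen with earlier results of these data known. Named genes are the 10 members, Fos, Egr1, the called genes of each list (where none, the 2 with the smallest p) and the 3 genes most like Dusp1, Dusp6 and Spry4. Marker genes, Etv5, Fosl1, Myc, Ergic1, Gm42922 and Hbb-bt were named outside that rule, after their values were seen. The alternatives tried were other pseudocounts, filters, scalings and variance settings, removal of a length trend, a replicate block, a motor neuron marker covariate and leaving out each library. Sums of 14 marker lists were computed, of which those in the text are given.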

Additional observations from a re-analysis of the deposited data

How the results depend on the processing

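The counts of calls depended on the processing, and where no value below shows a reason the cause was not tested. Across all genes, 138 were called higher and 82 lower. These counts were 6 and 2 with no filter on low values, 231 and 107 with a filter of 5 FPKM, 101 and 853 in TPM, 47 and 55 after quantile normalization, 14 and 22 without an intensity trend, 225 and 124 with robust moderation, 15 and 19 with the length trend removed, and 518 and 387 with the motor neuron covariate. Leaving out 1 library gave 0 to 531 higher and 1 to 274 lower, the highest counts without morphine 2.

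Of the 10 genes, 0 were called higher in any of these fits. Called lower were 3 in TPM, 2 with robust moderation and 3 with the motor neuron covariate, and 0 in the other fits. With TPM and after quantile normalization, chosen after seeing the data for this count, 0 of the 10 were higher with groups that did not overlap (beside 5.19% and 12.7% of tested genes), and 5 (with Spred1, beside 32.2% of tested genes) and 3 (without Dusp1, beside 15.2%) were lower.

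Dusp1, Dusp4, Dusp6, Spry4, Dusp10 and Spry2 kept their sign in every fit that held them. Fos lost its call with no filter (adjusted p = 0.0804) and with the replicate block (0.0521), besides 5 of the 6 fits without 1 library. The stricter filter held 7 of the 10 and left out Dusp4, Dusp5 and Spry1. The sign turned for Dusp7 in TPM (-0.023) and for Spry1 after quantile normalization (0.013). Over the fits without 1 library the log2 fold change of Dusp5 ran from -0.19 to 0.064 (without saline 1) and that of Spry1 from -0.06 to 0.003 (without saline 3), with 0.000 without morphine 1. That of Spred1 ran from -0.11 to 0.005 (without saline 3).

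With the replicate number as a replicate block, 17 genes were higher and 7 lower and 0 of the 10 were called. Deviations of same-numbered libraries correlated at -0.129, 0.161 and 0.295. Those of differently numbered libraries ran from -0.341 (saline 3 with morphine 2) to 0.238 (saline 1 with morphine 2). These ranges overlap, and no pairing was assumed. About 36 to 126 fragments of Dusp4 and 48 to 91 of Dusp5 per library limit the precision for both genes.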
